A study of Homo sapiens with 6 samples.

Results

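The IFI-named genes are IFI6, IFI27, IFI44, IFI44L, IFI35, IFI16 and IFI30, members of several unrelated protein families that share a name because interferon raises their transcripts. All 7 symbols were found among the 26372 genes of the expression table. The 7 were chosen with their values in each knockdown library against the 3 controls already known, so those values are given as a description and without a test. The table holds 9 symbols made of IFI and a number. The other 2, IFI27L1 and IFI27L2, are described with the relatives of the 7.

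The cells were BE(2)-M17, a human neuroblastoma cell line. There were 3 libraries of polyA RNA from cells with GOMAFU knockdown and 3 control libraries, with the numbers 2, 3 and 4 in each group. GOMAFU, a nuclear long non-coding RNA, has the gene symbol MIAT, and the series places it in a pathway with miR-137 in neuronal differentiation. The protocol, given in the same words for every library, names transfection of 100 pmol of siRNA, microRNA mimic or microRNA inhibitor with a lipid reagent. The labels state neither what the control cells received nor the sequence used for the knockdown, and nothing in them says that the replicates were separate cultures, so a p-value here reflects only how much these samples vary, and that variation may be technical.

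Type I and type III interferons are secreted proteins that signal through cell-surface receptors and the kinases JAK1 and TYK2 to a transcription factor complex that includes STAT2 and IRF9. This complex binds a DNA element made of paired GAAA half-sites near the start of its target genes. Interferon-gamma acts through JAK1 and JAK2 and a different, palindromic element. IFI6 and IFI27 are small hydrophobic membrane proteins, IFI44 and IFI44L are cytoplasmic relatives of each other, IFI35 is a partner of NMI, IFI16 is a nuclear DNA sensor and IFI30 is a lysosomal thiol reductase best known in antigen-presenting cells.

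Levels are in FPKM, which corrects fragment numbers for gene length and library total, so different genes can be compared. Low values repeat in steps that give each library's depth relative to control replicate 3. These relative depths were 1.06 to 1.36 in the knockdown libraries and 0.973 to 1.10 in the controls, and each library had 11976 to 12314 genes at 1 FPKM or more. Knockdown replicate 4 stood apart. Across the 12164 genes whose mean reached 1 FPKM it correlated with the other 5 libraries at r = 0.940 to 0.956, against 0.988 to 0.996 among the controls, so results are given with and without it. The line's markers PHOX2A, HAND2 and GATA3 were at 141 to 606 FPKM in the knockdown libraries and at 150.3 to 566 FPKM in the controls. TH, the enzyme that starts catecholamine synthesis, stayed under 0.1 FPKM in all 6. MIAT stood at 1.27, 1.32 and 3.21 FPKM in knockdown replicates 2, 3 and 4 and at 5.38, 5.96 and 8.57 FPKM in control replicates 2, 3 and 4, with no overlap. Its log2 difference was -1.42 (SE 0.27, limma adjusted p = 0.9998), and the exact two-sided permutation test gave p = 0.1, the smallest that 3 against 3 allows. Giving each library its own weight in limma brought MIAT past 0.05 (adjusted p = 0.00299), as did leaving out the pair of libraries numbered 4 (adjusted p = 0.015); its adjusted p ran from 0.00299 to 1 over the alternatives.

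The stretches upstream of the members differ in whether they carry the paired half-sites. The RefSeq promoter table (GRCh38.p14) held all 7 members, and the 250 bases before each listed transcript start were searched on both strands. The 200 bases before the start are printed for IFI6, IFI27 and IFI44, which had the largest fitted differences among the 7, and for IFI30, which had the smallest. They cover chr1:27672193-27672392 (minus strand) for IFI6, chr14:94110536-94110735 (plus strand) for IFI27, chr1:78649589-78649788 (plus strand) for IFI44 and chr19:18173613-18173812 (plus strand) for IFI30. Each reads 5′ to 3′ on the strand of the gene, and capitals mark 2 GAAA half-sites, or their reverse complement, with 1 to 3 bases between them.
IFI6: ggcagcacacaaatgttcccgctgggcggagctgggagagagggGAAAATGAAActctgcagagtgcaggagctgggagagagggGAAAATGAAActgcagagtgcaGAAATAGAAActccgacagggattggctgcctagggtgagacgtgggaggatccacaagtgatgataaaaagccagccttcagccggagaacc
IFI27: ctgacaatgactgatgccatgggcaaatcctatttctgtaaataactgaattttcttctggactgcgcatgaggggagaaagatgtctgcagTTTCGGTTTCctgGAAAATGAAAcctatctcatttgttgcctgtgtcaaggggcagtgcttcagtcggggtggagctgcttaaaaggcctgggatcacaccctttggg
IFI44: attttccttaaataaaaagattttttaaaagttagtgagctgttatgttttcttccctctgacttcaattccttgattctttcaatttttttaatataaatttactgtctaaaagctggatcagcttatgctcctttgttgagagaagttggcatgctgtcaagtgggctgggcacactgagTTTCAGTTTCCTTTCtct
IFI30: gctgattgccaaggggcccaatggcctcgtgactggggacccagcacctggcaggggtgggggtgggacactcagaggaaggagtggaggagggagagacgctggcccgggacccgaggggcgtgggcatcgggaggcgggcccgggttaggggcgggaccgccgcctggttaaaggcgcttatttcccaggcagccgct

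The motif GAAANNGAAA, the core of the element bound by the complex with STAT2 and IRF9, stood upstream of 4 of the 7 members, which is 57.1%, against 3.71% of the 27305 genes in the promoter table. IFI6 had 3 copies, IFI27 and IFI44L had 2 each and IFI44 had 1. The motif with a spacer of 1 base, GAAANGAAA, was searched after the letters had been seen. It stood upstream of IFI44, where it overlaps the other pair, of IFI35 and of the second listed start of IFI16, against 3.34% of all genes. The motif with a spacer of 3 bases, GAAANNNGAAA, stood only upstream of IFI44L among the 7, against 3.10% of all genes. The palindrome TTCNNNGAA, the core of the element of the interferon-gamma response, was found upstream of IFI27 and IFI35, against 8.09% of all genes. In IFI27 it overlaps both GAAANNGAAA copies, and in IFI35 it overlaps the GAAANGAAA pair. None of the 4 motifs stood in the 250 bases before the IFI30 start or before the first listed start of IFI16. For comparison, 19 of 28 matched genes of a list of other type I interferon effectors, 67.9%, held GAAANNGAAA. These are matches of letters and not measured binding.

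**Figure D1:**
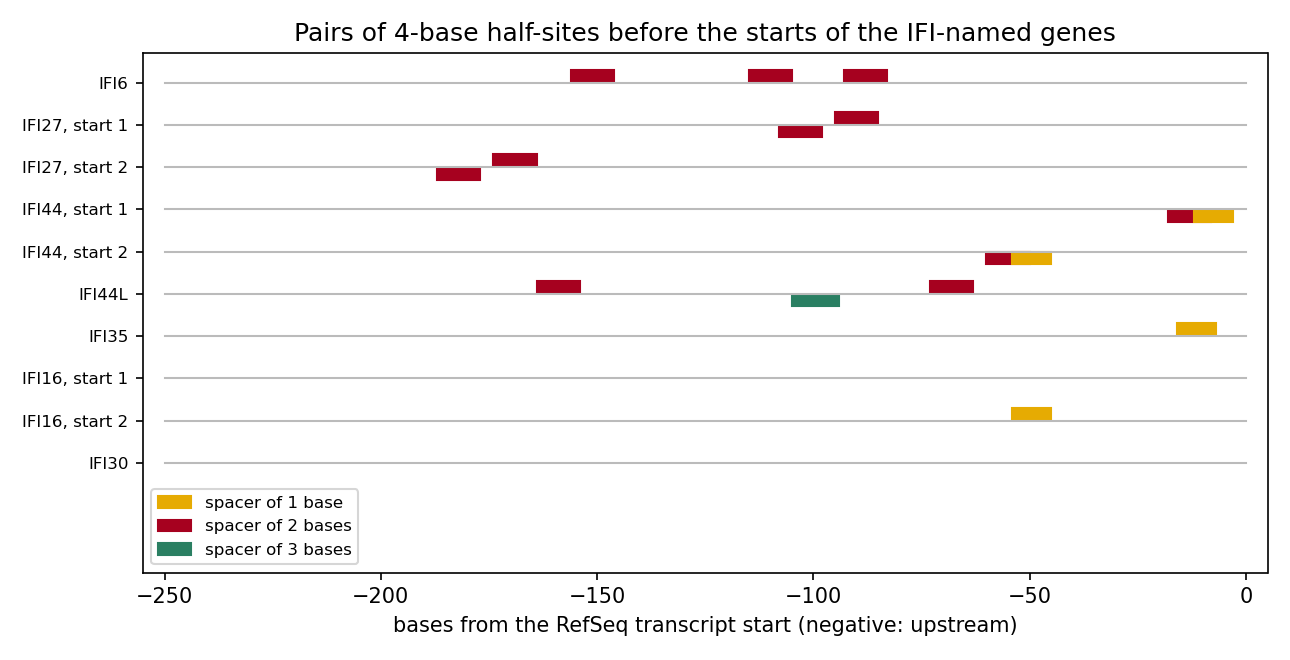
Positions of paired half-sites in the 250 bases before each RefSeq transcript start of the 7 genes. The horizontal axis gives bases from the start, colours give the spacer, and bars above or below a line are on the gene's strand or the other strand. IFI6 has 3 pairs with a spacer of 2 bases and IFI30 has none.

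IFI6, a membrane protein known to restrain apoptosis and flavivirus replication, was the most abundant of the 7 in every knockdown library. Its gene lies on chromosome 1, from 27666061 to 27672218 on the minus strand (GRCh38, GENCODE release 29). It stood at 185, 24.2 and 4043 FPKM in knockdown replicates 2, 3 and 4, against 10.7, 10.6 and 9.63 FPKM in control replicates 2, 3 and 4. Every knockdown value lay above every control, and the 3 controls were close together, whereas the knockdown libraries differed widely among themselves. In these bulk libraries a larger share of responding cells and more RNA per cell cannot be told apart. The means were 1417 ± 2275 FPKM in knockdown libraries and 10.3 ± 0.598 FPKM in controls (SD, n = 3 each). The knockdown values were 17.9, 2.34 and 392 times the control mean in replicates 2, 3 and 4. IFI6 ranked 397, 3551 and 11 among the 26372 genes in those libraries, against ranks of 6371 to 6869 in the controls. The fitted log2 difference was 4.56 (SE 1.62), and 2.60 without knockdown replicate 4. GENCODE places an antisense gene, AL445490.1, over part of IFI6, and strand handling in the counting is unknown here, so reads from the pair cannot be told apart.

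IFI27, a relative of IFI6 found in mitochondrial and nuclear membranes, is encoded on the plus strand of chromosome 14, from 94104836 to 94116698. It stood at 36.2, 2.82 and 1606 FPKM in knockdown replicates 2, 3 and 4, against 2.91, 3.36 and 1.74 FPKM in control replicates 2, 3 and 4. Knockdown replicates 2 and 4 lay above all controls, whereas knockdown replicate 3 lay among them, so the groups overlapped. The 3 knockdown libraries were at 13.6, 1.06 and 602 times the control mean. In knockdown replicate 4 that ratio was larger for IFI27 than for IFI6, and in the other knockdown libraries it was smaller. The fitted log2 difference was 4.09 (SE 1.94), and 1.73 without knockdown replicate 4.

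IFI44 and IFI44L are related cytoplasmic proteins whose transcripts are common members of blood interferon signatures, and IFI44L is known as a feedback regulator of the response. The genes sit in tandem on the plus strand of chromosome 1, from 78649796 to 78664078 for IFI44 and from 78619922 to 78646145 for IFI44L, with 3651 bases between them. IFI44 stood at 16.4, 0.987 and 373 FPKM in knockdown replicates 2, 3 and 4, and was listed at 0, 0.168 and 0 FPKM in control replicates 2, 3 and 4. IFI44L stood at 6.30, 0.347 and 189.8 FPKM in the knockdown libraries and was listed at 0 in all 3 controls. For both genes every knockdown library lay above every control. No fold is given for either, because controls were listed at 0. Fitted log2 differences, on the log2(FPKM + 1) scale, were 4.48 (SE 1.67) for IFI44 and 3.62 (SE 1.59) for IFI44L, and 2.48 and 1.65 without knockdown replicate 4. IFI44 was the more abundant of the pair in each knockdown library.

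IFI35, a leucine-zipper protein that binds NMI, is encoded on the plus strand of chromosome 17, from 43006725 to 43014456. It stood at 0.574, 0.182 and 15.8 FPKM in knockdown replicates 2, 3 and 4, against 0.113, 0.124 and 0.127 FPKM in control replicates 2, 3 and 4. The groups did not overlap, but only knockdown replicate 4 was above 1 FPKM. The 3 knockdown values were 4.74, 1.50 and 130.2 times the control mean. The fitted log2 difference of 1.49 (SE 0.93) became 0.28 without knockdown replicate 4.

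IFI16, a DNA sensor of the PYHIN family, is encoded on the plus strand of chromosome 1, from 158999968 to 159055155. It stood at 0.811, 0.128 and 30.0 FPKM in knockdown replicates 2, 3 and 4, against 0.136, 0.149 and 0.0512 FPKM in control replicates 2, 3 and 4. Knockdown replicate 3 lay within the controls and the other knockdown libraries above them. The ratios to the control mean were 7.22, 1.14 and 267. The fitted log2 difference of 1.84 (SE 1.14) became 0.36 without knockdown replicate 4.

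IFI30, the thiol reductase also called GILT, unfolds disulfide-bonded proteins in lysosomes for presentation on MHC class II, and interferon-gamma is its classical inducer. Its gene is on the plus strand of chromosome 19, from 18173162 to 18178117. It stood at 11.6, 11.2 and 22.4 FPKM in knockdown replicates 2, 3 and 4, against 11.8, 7.08 and 7.53 FPKM in control replicates 2, 3 and 4. Control replicate 2 lay above knockdown replicates 2 and 3, so the groups overlapped. The means were 15.1 ± 6.34 FPKM in knockdown libraries and 8.82 ± 2.63 FPKM in controls (SD, n = 3 each). The knockdown values were 1.31, 1.27 and 2.54 times the control mean, and the fitted log2 difference of 0.67 (SE 0.29) became 0.37 without knockdown replicate 4. A protein-coding gene of GENCODE, AC007192.1, covers IFI30 on the same strand, so shared reads could not be assigned to one of them.

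**Figure D2:**
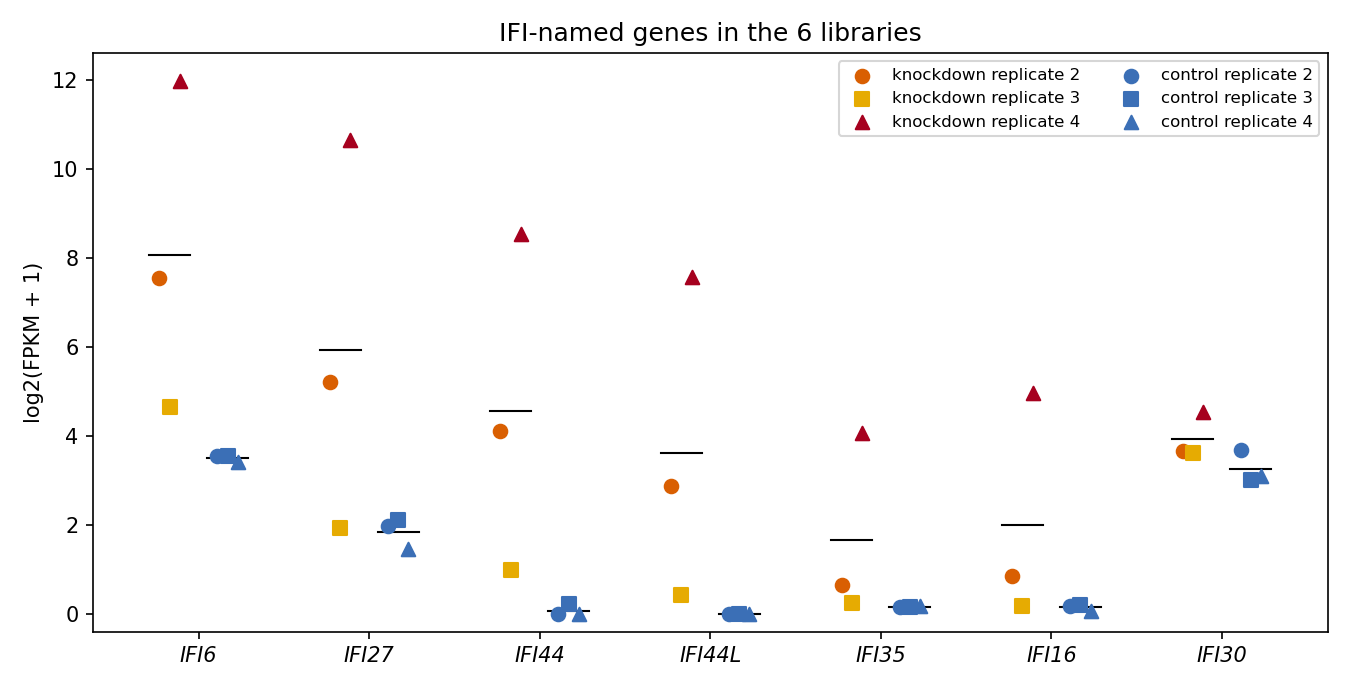
Levels of the 7 IFI-named genes as log2(FPKM + 1). Each point is 1 library, knockdown left of control for each gene, and black lines are group means. Knockdown replicate 4 is the highest point for every gene, up to 4043 FPKM for IFI6, and for IFI30 the other knockdown libraries lie at the level of control replicate 2.

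The 7 genes differed in their control level. IFI6, IFI27 and IFI30 were above 1 FPKM in every control, and the other 4 were under 1 FPKM in every control. In 4 of the 7, IFI6, IFI44, IFI44L and IFI35, all knockdown values lay above all controls, where 4.02% of the 18663 genes with any value above 0 did so, and 4.01% of those passing the filter. Above all 3 controls were 6 members in knockdown replicate 2, 4 in replicate 3 and 7 in replicate 4, beside 23.5%, 22.7% and 31.1% of genes. On the FPKM + 1 scale, 4 members were at least 2-fold over the control mean in knockdown replicate 2 (0.268% of genes), 1, IFI6, in replicate 3 (0.0697%), and 7 in replicate 4 (1.81%). The members were chosen on these values, so the counts describe the choice. All 7 passed the filter of a mean of at least 1 FPKM, but IFI35 and IFI16 did so only through knockdown replicate 4.

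No gene of the table passed the threshold of an adjusted p under 0.05 in limma (0.0% of 12164 genes), and so no member did. At an unadjusted p under 0.05 there were 263 genes, 2.16%. With library weights 22 genes passed (0.181%), none of them a member, and the smallest adjusted p of a member was 0.0546 for IFI6 (0.0546 to 1 over its alternatives). The median log2 difference of the 7 was 3.62, against 0.00 over genes with any value above 0, and it was 1.65 without knockdown replicate 4.

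The total of the 7 shows how unequal the knockdown libraries were. Together they made up 257, 39.9 and 6280.1 FPKM in knockdown replicates 2, 3 and 4, against 25.7, 21.5 and 19.1 FPKM in control replicates 2, 3 and 4. As shares of each library's summed FPKM these were 0.0443%, 0.00644% and 1.05% in the knockdown libraries and 0.00403%, 0.00352% and 0.0031% in the controls. IFI6 alone accounted for 72.0%, 60.6% and 64.4% of the members' total in the knockdown libraries and for 41.6%, 49.4% and 50.5% in the controls. The remaining MIAT was 19.2%, 19.9% and 48.4% of the control mean in knockdown replicates 2, 3 and 4. The library with the most MIAT left had the highest value of every IFI-named gene, and the 2 libraries with about equal MIAT differed 7.65-fold in IFI6. The part of MIAT in the values of the IFI-named genes was not tested.

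Ratios between the knockdown libraries set IFI30 apart from the other 6. Knockdown replicate 4 over replicate 2 was 21.9 for IFI6, 22.7 for IFI44, 27.5 for IFI35, 30.2 for IFI44L, 37.0 for IFI16 and 44.3 for IFI27, but 1.93 for IFI30. The 33 other interferon effectors with values above 0 in all knockdown libraries had a median of 31.1 for the same ratio, from 3.58 to 179, and genes passing the filter a median of 0.996. Knockdown replicate 2 over replicate 3 was 18.1 for IFI44L, 16.6 for IFI44, 12.9 for IFI27, 7.65 for IFI6, 6.32 for IFI16, 3.15 for IFI35 and 1.03 for IFI30, beside a median of 5.48 for the effectors. Each ratio compares 1 library with 1 other and has no replicate error.

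**Figure D3:**
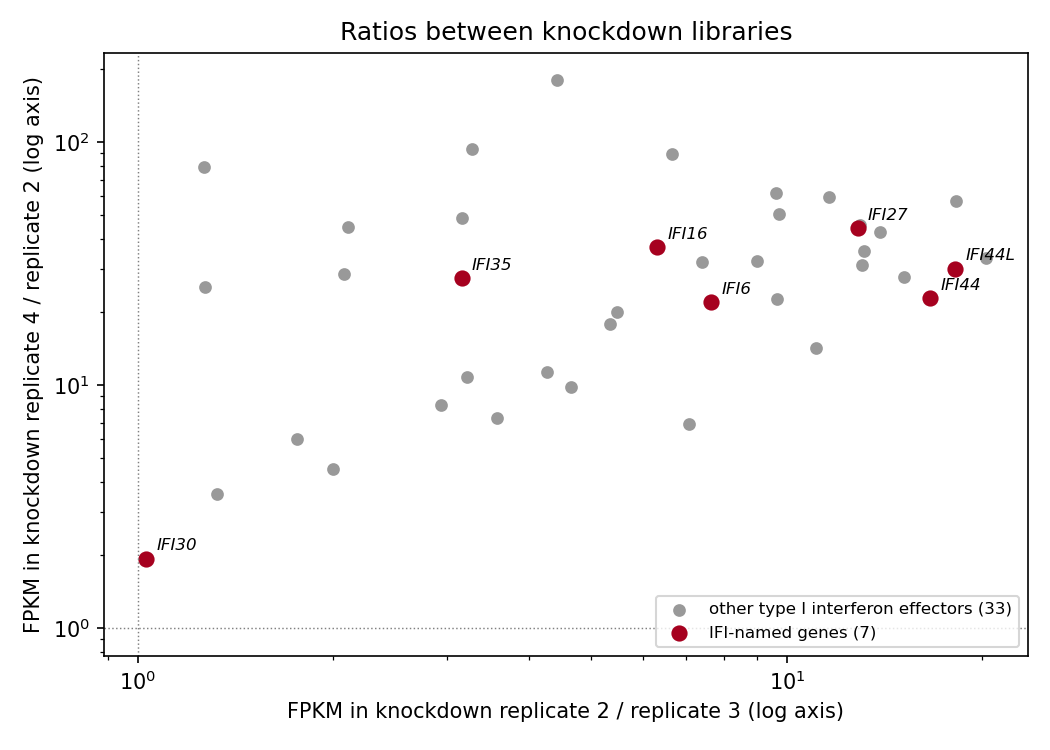
Ratio of FPKM in knockdown replicate 4 to replicate 2 (vertical, log axis) against the ratio in replicate 2 to replicate 3 (horizontal, log axis). Red points are the IFI-named genes and grey points 33 other type I interferon effectors. IFI30 lies near 1 on the horizontal axis and at 1.93 on the vertical axis, and the other 6 members lie between 21.9 and 44.3 vertically.

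The relatives outside the members that lie beside IFI27 and IFI16 did not share the differences of those genes. IFI27L1, which ends 990 bases before the GENCODE start of IFI27, stood at 13.9, 13.6 and 15.0 FPKM in knockdown replicates 2, 3 and 4, against 14.8, 13.9 and 12.3 FPKM in the controls, a log2 difference of 0.05 (SE 0.09). IFI27L2, 11081 bases beyond IFI27, stood at 55.2, 64.1 and 99.2 FPKM in the knockdown libraries, against 75.9, 74.5 and 66.3 FPKM in the controls, so that replicates 2 and 3 lay below all controls and replicate 4 above them. Both were far above IFI27 in the controls and below it in knockdown replicate 4. Of the PYHIN genes beside IFI16, AIM2, another DNA sensor, stayed under 0.185 FPKM in all 6 libraries and MNDA and PYHIN1 were listed at 0 throughout. NMI, the binding partner of IFI35, stood at 1.78, 0.63 and 72.5 FPKM in the knockdown libraries, against 0.137, 0.403 and 0.466 FPKM in the controls, with no overlap.

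The nearest genes outside the interferon lists with a mean of at least 1 FPKM, 2 on each side of every member, were then compared. Genes below that mean or without matched coordinates were passed over, so nearer genes may have been skipped. These 28 places held 24 different genes, and their log2 differences ran from -0.13 to 0.39 with a median of 0.05. In knockdown replicate 4 they lay between -0.52 and 0.70 of the control mean, while the members lay between 1.28 and 8.80. VAT1, a membrane protein whose gene lies 149 bases beyond IFI35, stood at 110.1, 118 and 106 FPKM in knockdown replicates 2, 3 and 4 and at 123, 118 and 124 FPKM in the controls. PIK3R2, a kinase subunit whose gene ends 2622 bases before IFI30, stood at 65.5, 64.3 and 55.9 FPKM in the knockdown libraries and at 62.4, 66.5 and 63.1 FPKM in the controls. The neighbour with the largest difference, GSC, a homeobox factor 651518 bases from IFI27, was at 1.83, 1.75 and 1.92 FPKM in the knockdown libraries and at 0.659, 1.32 and 1.63 FPKM in the controls. Distances depend on which genes passed the filter, and the farthest of these neighbours lies 5218883 bases away.

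**Figure D4:**
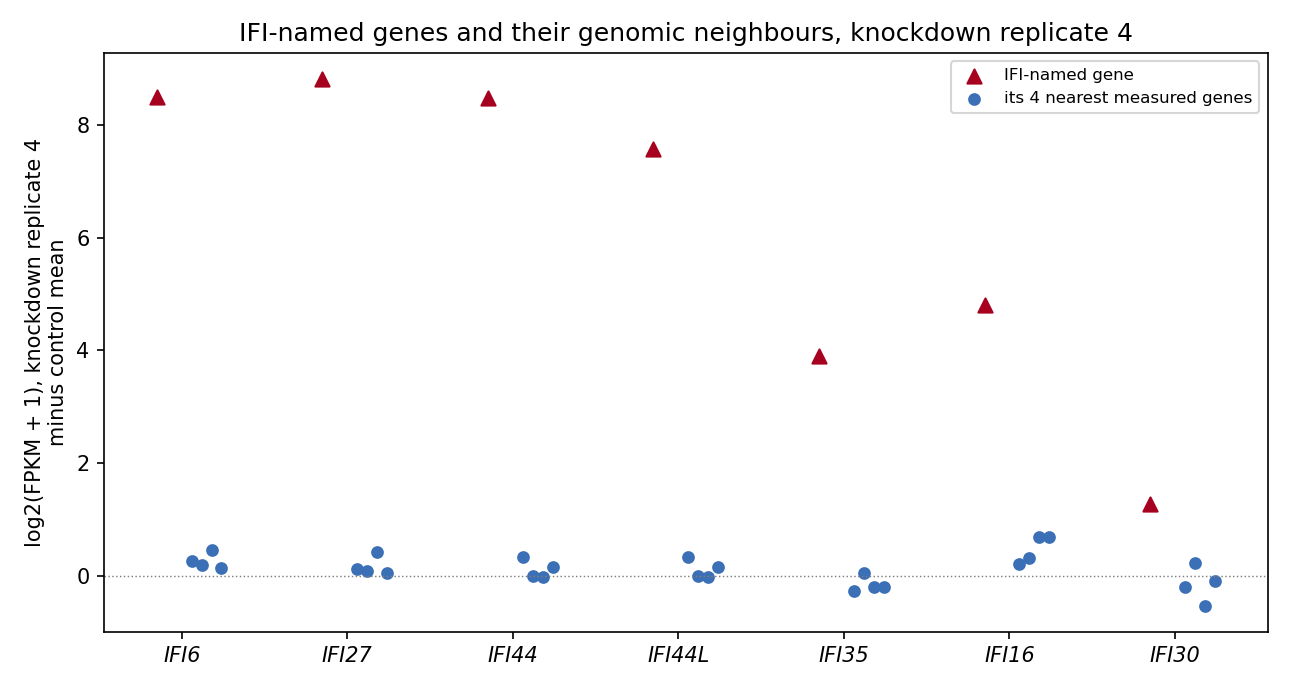
Differences of knockdown replicate 4 from the control mean on the log2(FPKM + 1) scale. Red triangles are the IFI-named genes. Blue points are the 4 nearest genes of each that had a mean of at least 1 FPKM and lay outside the interferon lists. The neighbours lie between -0.52 and 0.70, and the members between 1.28 for IFI30 and 8.80 for IFI27.

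Profiles over the 6 libraries were compared by the root mean square distance between log2(FPKM + 1) values after subtraction of each gene's control mean. Among the members, IFI6 and IFI44 were the closest pair at 0.12, although IFI6 was at about 10 FPKM in the controls and IFI44 was near 0. Their closeness depends on the pseudocount of 1. With a pseudocount of 0.01 the fitted log2 differences were 4.67 for IFI6 and 9.45 for IFI44. IFI35 and IFI16 were at 0.38 of each other, and IFI30 was at 1.10 or more from every other member. Outside the members, the 5 nearest to IFI6 were IFIT1 (0.29), IFITM1, IFIT3, BST2 and IFIT2 (0.76). The 5 nearest to IFI44 were the same genes, at 0.30 to 0.73. IFI27 was nearest to IFITM1 (0.47), IFIT2, BST2, HERC5 and IFIT1 (0.67), and IFI44L to HERC5 (0.15), BST2, HERC6, IFIT2 and USP18 (0.28). IFI35 was nearest to APOL2 (0.08), RTP4, STAT2, SAMD9 and IFIH1 (0.12), and IFI16 to DHX58 (0.09), C19orf66, CXCL11, IRF1 and MT2A (0.19). Only genes passing the filter were searched. RTP4, SAMD9, IFIH1, DHX58, C19orf66 and CXCL11 passed it only through knockdown replicate 4, as did IFI35 and IFI16, so a likeness in that library was partly built in. The 5 nearest to IFI30 included PVRL2 (0.18), RELB, SOX13 and NFKBIZ (0.21), and none of the 5 is in the interferon lists used here. These distances describe 6 libraries, of which knockdown replicate 4 weighs most.

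The other genes of the pathway were described from lists, beginning with the ligands. Of 21 interferon genes, 12 were listed at 0 in all 6 libraries, and 17 never exceeded 0.249 FPKM. The other 4 were IFNB1 and the type III genes IFNL1, IFNL2 and IFNL3, all listed at 0 in every control. IFNB1 stood at 0.0971, 0.0771 and 23.0 FPKM in knockdown replicates 2, 3 and 4, and IFNL1 at 0.945, 0 and 51.4 FPKM. IFNL2 and IFNL3 are near-identical copies whose reads may be split, at 17.2 and 15.2 FPKM in knockdown replicate 4. The ligands thus had their only values above 1 FPKM in the library where the IFI-named genes were highest. Their part in the values of the IFI-named genes was not tested.

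Most receptor chains and kinases of the list lay close to their control means. IFNAR1, IFNAR2, IFNGR1, IFNGR2, JAK1 and TYK2, singled out after their values were seen, lay between -0.12 and 0.15 of their control means in every knockdown library. JAK2, the kinase of the interferon-gamma receptor, was different: it stood at 0.698, 0.688 and 2.95 FPKM in knockdown replicates 2, 3 and 4, against 0.561, 0.442 and 0.707 FPKM in control replicates 2, 3 and 4. Knockdown replicate 4 lay above all controls for JAK2, and the other knockdown libraries lay within them. IRF9, the DNA-binding part of the complex downstream, stood at 35.3, 10.3 and 113 FPKM in knockdown replicates 2, 3 and 4, against 7.37, 6.06 and 5.12 FPKM in the controls, with no overlap. STAT2, its partner, stood at 7.14, 4.11 and 81.7 FPKM in the knockdown libraries, against 3.82, 4.42 and 4.90 FPKM in the controls, and overlapped through knockdown replicate 3. IRF7, a transcription factor that amplifies interferon production, was at 6.34, 0.703 and 83.4 FPKM against 0.622, 0.745 and 0.609 FPKM, and USP18, which removes ISG15 and restrains the receptor, was at 7.09, 0.74 and 146 FPKM against 0.316, 0.173 and 0.107 FPKM. Of the 17 signalling genes 5 were higher without overlap and 1 was lower, beside 4.02% and 3.72% of genes, with a median log2 difference of 0.46 (0.09 without knockdown replicate 4).

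Of the 36 other type I interferon effectors, 26 were higher in knockdown libraries without overlap and 0 lower, beside 4.02% and 3.72% of genes, and the median log2 difference was 2.52 (0.94 without knockdown replicate 4). The largest were ISG15, a ubiquitin-like modifier, at 5.95 and the IFIT family members IFIT3 at 4.99 and IFIT1 at 4.29. Also among the largest was IFITM1, a membrane protein that blocks viral entry, at 4.64. Relative to the control mean the list's medians were 1.65, 0.22 and 5.85 in knockdown replicates 2, 3 and 4, where the IFI-named genes had medians of 2.87, 0.35 and 7.58. Which list is higher depends on the pseudocount. The median fitted differences of the IFI-named genes and the effectors were 4.37 and 3.42 with a pseudocount of 0.1. With a pseudocount of 0.01 they were 4.41 and 4.56. Only 21 of the 36 kept a mean of 1 FPKM without knockdown replicate 4, against 33 with it. The list was drawn up with earlier results of these libraries known, and no member of it passed the limma threshold.

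**Figure D5:**
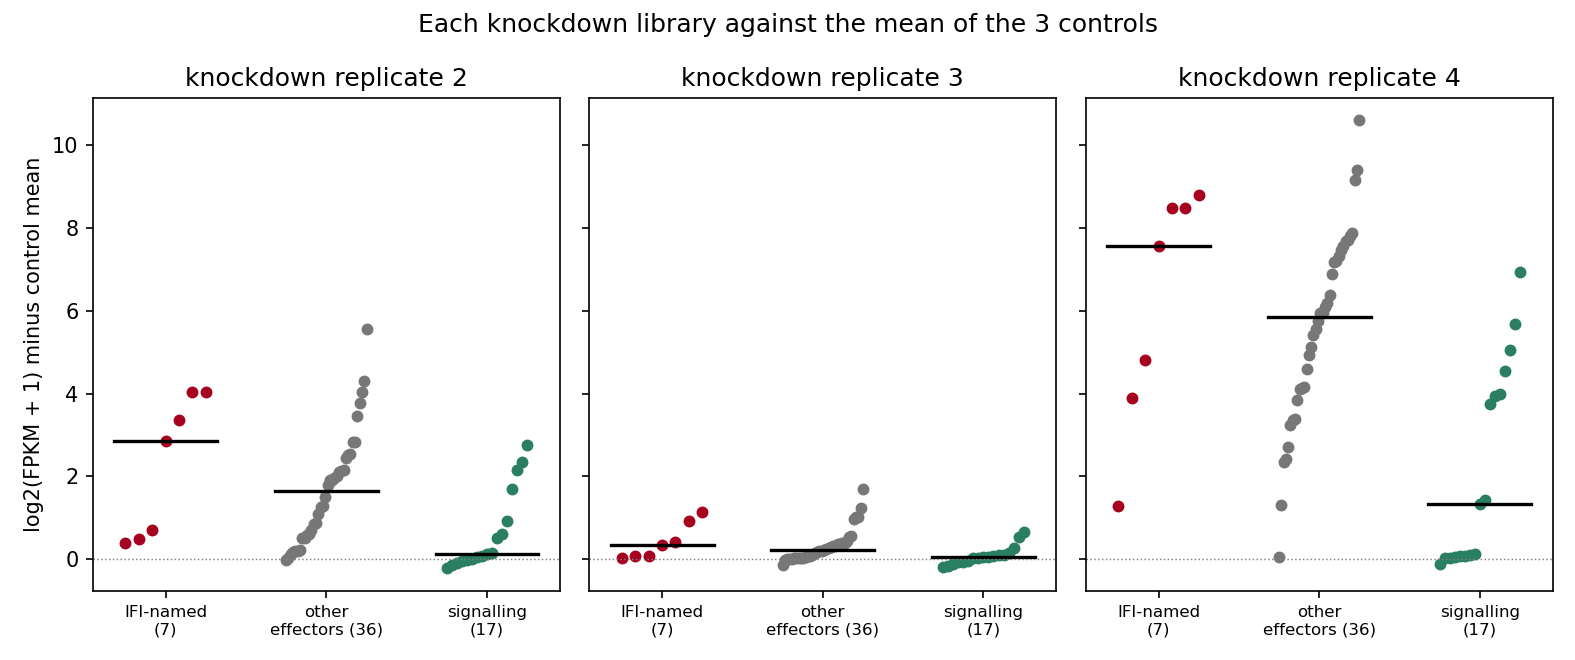
Differences from the control mean on the log2(FPKM + 1) scale in each knockdown library. Each point is 1 gene, and black lines are medians, for the 7 IFI-named genes, 36 other type I interferon effectors and 17 signalling genes. The median of the IFI-named genes is 2.87, 0.35 and 7.58 in replicates 2, 3 and 4.

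Genes around the separate roles of IFI30 and IFI16 gave mixed values. In the list of MHC class II and lysosomal processing, which IFI30 serves, 1 of 18 genes was higher without overlap, a share near the 4.02% of all genes. It was CTSS, a cathepsin that trims the class II invariant chain, at 0.155, 0.272 and 1.27 FPKM in knockdown replicates 2, 3 and 4, against 0.117, 0.128 and 0.132 FPKM in the controls. CD74, the invariant chain itself, stood at 0.186, 0.147 and 1.17 FPKM in the knockdown libraries, against 0.107, 0.235 and 0.154 FPKM in the controls, and only knockdown replicate 4 lay above all controls. CIITA, the master activator of class II genes, and the HLA class II chains stayed under 0.803 FPKM in all 6 libraries, and the list's median log2 difference was 0.02. Of 17 genes chosen as interferon-gamma-induced, 6 were higher without overlap, beside 4.02% of genes, with a median of 0.70 (0.22 without knockdown replicate 4). The largest were the chemokine CXCL10 at 3.01, the peptide transporter TAP1 at 2.78, the GTPase GBP1 at 2.53 and the chemokine CXCL11 at 1.95. TAP1 and CXCL11 overlapped the controls. All of these named genes passed the filter only through knockdown replicate 4. Only 4 of the 17 kept a mean of 1 FPKM without that library, against 12 with it. Type I interferon also induces genes of this list, CXCL10 among them. Among 10 genes of cytosolic DNA sensing, where IFI16 acts, 1 was higher without overlap, beside 4.02% of genes, and a single gene of 10 is no result about the list. It was the DNA exonuclease TREX1, at 5.40, 5.96 and 23.4 FPKM in the knockdown libraries and at 4.63, 4.57 and 4.77 FPKM in the controls. The largest difference there was that of SAMHD1, a dNTP hydrolase, at 1.72, with overlap.

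IFI30 is abundant in leukocytes, so markers of other cells were read beside it. Of 12 leukocyte markers 4, among them CD3E, CD3D and MS4A1, were listed at 0 in all 6 libraries. CD14 and FCER1G were the 2 that passed the filter of a mean of at least 1 FPKM. Among the others the highest value was 0.193 FPKM. The summed level of the 12, CD14 and FCER1G included, was 2.01 to 4.23 FPKM in the knockdown libraries and 2.78 to 4.74 FPKM in the controls. The 8 fibroblast and endothelial markers summed to 72.7 to 85.2 FPKM in the knockdown libraries and to 58.7 to 83.5 FPKM in the controls, most of it DCN. In knockdown replicate 4, 2 of the leukocyte markers and 4 of the fibroblast and endothelial markers lay above all controls, beside 31.1% of genes. The leukocyte marker with the largest log2 difference, FCER1G, was lower in the knockdown libraries, at -0.16. LUM and TYROBP were among the markers above all controls in knockdown replicate 4. LUM, an extracellular matrix proteoglycan, stood at 7.58, 7.23 and 13.8 FPKM in knockdown replicates 2, 3 and 4, against 7.70, 7.06 and 6.89 FPKM in control replicates 2, 3 and 4. TYROBP, a signalling adaptor of myeloid and natural killer cells, was at 0.193 FPKM in knockdown replicate 4 and listed at 0 in the other 5 libraries. The part of other cell types in the values of the IFI-named genes was not tested.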

How the data were processed

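TopHat2, Cuffdiff and the hg38 genome are named, per the submitters' processing notes, with versions, annotation, filters and strand handling not given in the sources used here. The authors deposited FPKM values, 1 column per library, for 26372 genes. FPKM is relative to the mapped total, so very abundant transcripts in 1 library lower the others in it. The depth in reads is unknown.

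The 12164 genes whose mean reached 1 FPKM were fitted as log2(FPKM + 1) with limma 3.58.1 in R 4.3.3 (eBayes with trend, two-sided, no covariate), with Benjamini-Hochberg adjustment over all of them. Differences are knockdown minus control of log2(FPKM + 1), a scale that shrinks the differences of genes with low values. Lists were described by counts and medians over all members in the table. The fit was tested on simulated data with independent normal noise in each library. It recovered 38% of simulated log2 differences of 0.5 and 88% of those of 1, with 8 false calls. No simulated library stood apart as knockdown replicate 4 does, so these shares do not carry over to the real libraries. The members, the lists and the alternatives were chosen with earlier results of these data known. The genes named are the members, MIAT, up to 4 per list by size of difference, the 5 nearest profiles per member and the neighbours with the largest differences; CTSS, TREX1, VAT1, PIK3R2 and the receptor chains were picked with their values in view or for their position. Coordinates are from GENCODE release 29 (GRCh38), matched by symbol for 94.6% of the fitted genes, and promoters from RefSeq. A few genes that these rules would name are not reported here.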

Additional observations from a re-analysis of the deposited data

How the results depend on the processing

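The number of genes past the threshold was 0 in 15 of 17 alternatives. It was 22 (9 higher, 13 lower) with library weights and 1, MIAT, without both libraries numbered 4. With each library left out in turn it was 0 to 0. MIAT had a log2 difference of -1.58 with library weights and -1.54 without both libraries numbered 4, past the threshold in both, and -1.71 to -1.24 with each library left out in turn. The weights came from the same libraries: knockdown replicate 2 had 3.34 and control replicate 3 had 7.98, while the other 4 lay between 0.153 and 0.915. Every alternative gave each IFI-named gene a difference above 0. The median of the 7 ran from 1.53 to 5.22, and that of the other effectors from 0.94 to 4.56. Without knockdown replicate 4 the median of the 7 was 1.65, without both libraries numbered 4 it was 1.53, and without knockdown replicate 3 it was 5.22. With a pseudocount of 0.01 the difference was 9.45 for IFI44, 9.56 for IFI44L, 3.21 for IFI35 and 3.74 for IFI16, because values near 0 then weigh more. IFI35 and MIAT did not reach a mean of at least 5 FPKM and have no value under that filter. With the replicate number as a block 0 genes passed, and MIAT had an adjusted p of 0.194. The labels do not say whether same-numbered libraries were paired. Their deviations correlated at 0.09, 0.17 and 0.32 for the numbers 2, 3 and 4. Knockdown replicates 2 and 3 each correlated better with another control than with their own number. Knockdown replicate 4 correlated best with control replicate 4, against -0.26 and -0.21 with control replicates 2 and 3.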

Other observations

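Some of the genes nearest in profile to the IFI-named genes lie outside the interferon lists used here. MT2A, a metal-binding metallothionein, stood at 32.7, 24.0 and 696 FPKM in knockdown replicates 2, 3 and 4, against 20.1, 27.6 and 16.9 FPKM in control replicates 2, 3 and 4. APOL2, a lipid-binding apolipoprotein L, stood at 6.10, 4.11 and 66.6 FPKM in the knockdown libraries, against 3.96, 4.36 and 3.75 FPKM in the controls. Both overlapped between the groups through knockdown replicate 3.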
